A study of Mus musculus with 19 samples.

Results

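Nkx2-1, Foxa2, Hnf4a and Sox9 are 4 transcription factors that mark lung or gut lineage. They were followed by gene symbol through ribosome footprints, RNA and lists of translated open reading frames (ORFs) from mouse organoids. They are 4 of the 7379 gene names in the ORF lists, and they are represented by 7 of the 22871 transcripts that those lists pair with a gene. Nkx2-1, Foxa2 and Hnf4a have 2 paired transcripts each and Sox9 has 1. The study set organoids of normal alveolar type 2 (AT2) cells, the surfactant-making cells of the alveolus, against organoids of lung adenocarcinoma (LUAD), in 19 samples. Footprints came from 3 AT2 and 4 LUAD libraries, RNA from 3 AT2 and 4 LUAD libraries, and ORF lists from 2 AT2 and 3 LUAD libraries. All groups were of strain C57BL/6, were grown in a custom lung organoid medium on plates washed with matrigel, were plated for 48 hours, and were treated for 5 minutes with 100 µM cycloheximide, a drug that stalls ribosomes on the message. The labels give no allele, driver or age for the tumor organoids, although the LUAD libraries behind the ORF lists are titled KP. The series design speaks of 2 AT2 cultures and 3 organoids derived from tumors, fewer than the 3 and 4 footprint or RNA libraries, so some libraries of a group may share a culture, and the p-values below measure only the spread between these libraries, which may be technical.

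Nkx2-1 is a homeodomain factor that specifies lung epithelium and maintains surfactant gene expression in AT2 cells. Foxa2 is a forkhead pioneer factor of endodermal organs that acts with Nkx2-1 in the lung, whereas Hnf4a is a nuclear receptor that drives gut and liver gene programs and is low or silent in normal lung epithelium. Sox9 marks the progenitors at the tips of the embryonic lung buds, and in mouse lung tumors loss of Nkx2-1 is known to go along with a gut-like, Hnf4a-expressing state.

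Estimated counts per library, rounded, totalled 3030300 to 3834400 in AT2 footprints, 4803100 to 14249600 in LUAD footprints, 4122800 to 10233500 in AT2 RNA and 27181900 to 33203700 in LUAD RNA. Between 65.0% and 70.0% of them fell on transcripts paired with a gene. Levels per library are given as counts-per-million (CPM) of the paired counts, after TMM scaling, which corrects for differences in RNA composition. Fold changes are LUAD over AT2. Scaling gave AT2 footprint library 1 a factor of 0.538, against 0.991 to 1.20 in the other footprint libraries. That library also stood apart in its profile, with a correlation of log2 CPM of 0.776 to 0.792 with the other AT2 footprint libraries, whose correlation with each other was 0.923. In LUAD, libraries 1 and 2 differed from libraries 3 and 4 in both assays. Only 7 of 15 AT2 markers were paired, the defining marker Sftpc not among them, and they gave a mixed check of the AT2 label. Sftpd, a surfactant protein, stood at 1046 ± 261 CPM in AT2 RNA (SD, n = 3) and 105 ± 18.6 CPM in LUAD RNA (SD, n = 4), whereas Il33 was at 1.31 CPM in AT2 RNA and 35.6 CPM in LUAD RNA. Aqp5, a marker of flat alveolar type 1 (AT1) cells, stood at 2257 ± 652 CPM in AT2 RNA (SD, n = 3).

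Nkx2-1 nearly disappeared from the LUAD libraries, Hnf4a appeared in them, Foxa2 RNA was about an order of magnitude lower, and Sox9 was moderately lower. Called by edgeR's quasi-likelihood test at an adjusted p (Benjamini-Hochberg) below 0.05, 3 of the 4 genes changed in footprints, 1 of them higher and 2 lower in LUAD. All 4 changed in RNA, 1 higher and 3 lower. Over all genes tested, 21.2% of 6811 were called in footprints (9.46% higher and 11.8% lower) and 37.1% of 6937 in RNA (19.1% higher and 18.1% lower). The CPM ranges of the 2 groups did not overlap for 3 of the 4 genes in footprints and for all 4 in RNA. That also held for 35.8% of all genes tested in footprints and 45.4% in RNA, so a lack of overlap was common. Nkx2-1 and Hnf4a passed the low-count filter through the group in which they were abundant. In organoids measured in bulk, fewer cells of a type and less RNA per cell cannot be told apart.

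**Figure D1:**
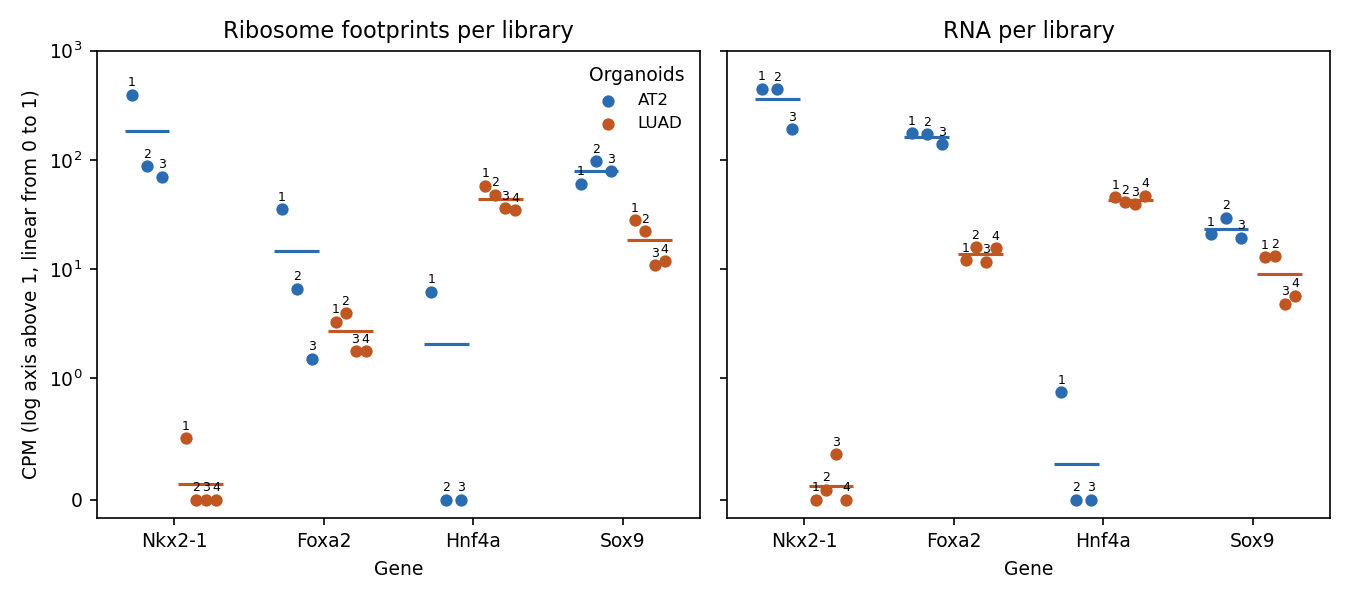
CPM of the 4 transcription factors (x axis) in each footprint library (left) and RNA library (right). Points are libraries, numbered by replicate, horizontal bars are group means, and the y axis is logarithmic above 1 CPM and linear below it. Nkx2-1 lies between 70.3 and 449 CPM in AT2 and below 1 CPM in LUAD, Hnf4a shows the opposite order, and Foxa2 footprints overlap between the groups.

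Nkx2-1 (ENSMUSG00000001496.15) lies on the minus strand of chromosome 12, at 56531935 to 56536908 of build GRCm38.p6 (mm10). Hnf4a (ENSMUSG00000017950.16) lies on the plus strand of chromosome 2, at 163506811 to 163572907. These are the genes with the largest changes of the 4, and the 250 bases before their RefSeq start sites (GRCm38.p6) are shown. The listed Nkx2-1 ORF opens 1848 bases downstream, along the genome, of the RefSeq start shown. Its paired transcripts have leaders (the part before the ORF) of 46 and 613 nucleotides, so this start is not shown to be theirs. Hnf4a has a distal and a proximal start in the RefSeq table, and the translated Hnf4a ORF opens 150 bases downstream of the proximal start and 40448 bases downstream of the distal start. Capitals mark exact matches, on either strand, to a forkhead core (TGTTTA), an HNF1 half-site (GTTAAT), an HNF4 half-site (CAAAGT), a SOX core (AACAAT) or an NKX2-1 core (CTCAAG), with no overlap among the matches shown.
Hnf4a proximal, chr2:163546905-163547154, plus strand: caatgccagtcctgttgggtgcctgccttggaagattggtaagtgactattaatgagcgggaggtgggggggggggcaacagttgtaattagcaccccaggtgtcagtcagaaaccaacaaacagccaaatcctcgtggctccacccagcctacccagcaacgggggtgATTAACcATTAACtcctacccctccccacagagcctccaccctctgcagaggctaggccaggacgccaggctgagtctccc
Hnf4a distal, chr2:163506607-163506856, plus strand: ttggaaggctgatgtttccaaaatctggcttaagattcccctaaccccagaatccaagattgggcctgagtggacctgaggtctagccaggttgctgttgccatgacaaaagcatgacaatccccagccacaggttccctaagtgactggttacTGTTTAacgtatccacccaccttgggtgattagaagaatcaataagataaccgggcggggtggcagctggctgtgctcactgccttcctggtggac
Nkx2-1, chr12:56536909-56537158, minus strand: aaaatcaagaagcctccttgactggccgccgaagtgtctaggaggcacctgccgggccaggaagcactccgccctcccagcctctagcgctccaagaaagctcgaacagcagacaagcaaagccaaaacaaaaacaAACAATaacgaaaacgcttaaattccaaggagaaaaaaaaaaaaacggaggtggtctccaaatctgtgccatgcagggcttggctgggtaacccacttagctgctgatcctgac

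The proximal Hnf4a window held 2 HNF1 half-sites, whose first bases lie 81 and 74 bases before the start, and the distal window held 1 forkhead core 96 bases before its start. Of the 32851 RefSeq promoter windows of the same length, 6.43% held at least 1 HNF1 half-site, 0.441% held at least 2, and 12.0% held a forkhead core. The Nkx2-1 window held 1 SOX core 114 bases before the start, as did 9.42% of windows with at least 1 such core. Neither Hnf4a window held the HNF4 half-site, found in 12.6% of windows, and none of these 3 windows held the NKX2-1 core, found in 13.3%. These matches describe letters in a window and do not show binding.

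Nkx2-1 had the highest mean CPM of the 4 in AT2 and was all but absent in LUAD. Its footprints stood at 397, 87.6 and 70.3 CPM in AT2 libraries 1, 2 and 3, and at 0.508, 0, 0 and 0 CPM in LUAD libraries 1 to 4. The groups did not overlap, and AT2 library 1 was far above the other AT2 libraries. Without TMM scaling that library stood at 213 CPM, closer to the 86.9 and 70.6 of the others. The AT2 libraries held 844 footprint counts and the LUAD libraries 2. The pooled scaled counts were 2485-fold higher in AT2 (95% exact interval 686 to 20550, counting error only), and the fitted log2 fold change was -11.20 ± 1.13 (SE; edgeR adjusted p = 0.0006485). Without AT2 library 1 it was -10.04, and without LUAD library 1, which leaves LUAD at 0 so that the fit depends on its prior count, it was -13.19. Nkx2-1 RNA stood at 449, 447 and 191 CPM in AT2 and at 0, 0.0827, 0.377 and 0 CPM in LUAD. AT2 library 3, the shallowest RNA library, was the low member of its group, and the groups did not overlap. The 6775 AT2 counts against 9 LUAD counts gave a 3839-fold higher level in AT2 (95% exact interval 2021 to 8400), with a log2 fold change of -11.61 ± 0.74 (SE; edgeR adjusted p = 5.546e-05). It ranged from -13.18, without LUAD RNA library 3, to -11.15, without LUAD RNA library 1.

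The loss was shared by both paired Nkx2-1 transcripts, as far as the counts reach. ENSMUST00000178477.8, with a leader of 46 nucleotides, took 84.6% to 100% of the gene's AT2 footprints and 84.2% to 96.8% of its AT2 RNA. Tested among transcripts, of which 7.3% were called in footprints and 10.1% in RNA, its log2 fold change was -10.79 in footprints (edgeR adjusted p = 0.007578) and -11.38 in RNA (edgeR adjusted p = 0.001646). ENSMUST00000001536.8, whose leader is 613 nucleotides long, had 69 AT2 footprint counts, all in AT2 library 1, and 0 in LUAD. That is at least 135-fold lower in LUAD with 3 counts over the LUAD libraries as the floor, and the transcript did not pass the filter for a test. In RNA it had 287 counts in AT2 and 0 in LUAD, at least 488-fold lower (edgeR adjusted p = 0.01048). The transcripts encode the same listed ORF of 372 codons, so the split between them is the authors' estimate from the reads in the differing parts.

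**Figure D2:**
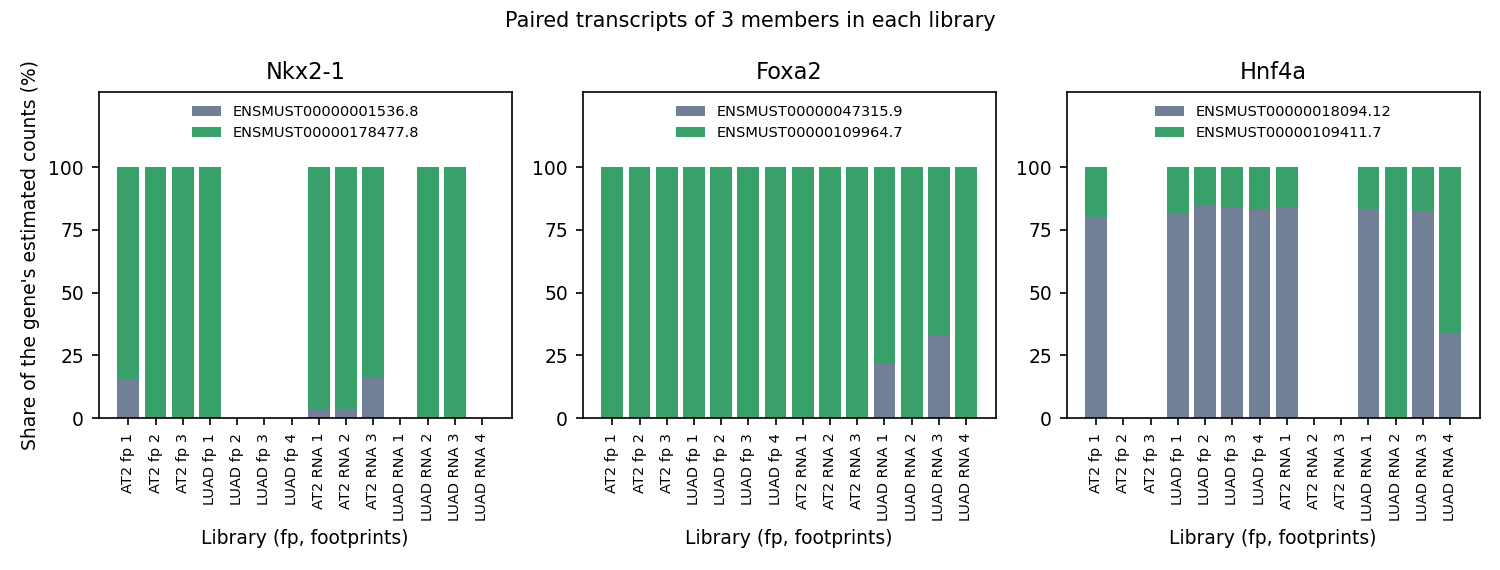
Share of each gene's estimated counts (y axis, %) assigned to its 2 paired transcripts, in each footprint (fp) and RNA library (x axis); empty columns are libraries with no count. The Hnf4a split is steady over LUAD footprints, at 81.5% to 84.7% for ENSMUST00000018094.12, and ranges from 0% to 83.2% over LUAD RNA.

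Hnf4a was the only one of the 4 that rose. Its footprints stood at 6.22, 0 and 0 CPM in AT2 and at 58.1, 48.0, 36.1 and 34.9 CPM in LUAD, with no overlap. All 7 AT2 counts came from AT2 library 1, and the LUAD libraries held 1528. The pooled ratio was 37.1-fold (95% exact interval 18.0 to 92.4), and the log2 fold change was 4.99 ± 1.08 (SE; edgeR adjusted p = 0.01476). Hnf4a RNA stood at 0.884, 0 and 0 CPM in AT2 and at 45.9, 40.9, 39.1 and 46.9 CPM in LUAD. The LUAD libraries were close to each other, the AT2 counts again came from library 1 alone, and the groups did not overlap. The 6 AT2 counts against 3658 LUAD counts gave a ratio of 120-fold (95% exact interval 54.9 to 326), with a log2 fold change of 6.89 ± 0.70 (SE; edgeR adjusted p = 0.0003134). Without AT2 footprint library 1 the AT2 footprints were at 0 and the call held (edgeR adjusted p = 0.0005008), as it did in RNA without AT2 RNA library 1 (edgeR adjusted p = 0.0003359). The fitted sizes then were 11.25 and 12.41, which depend on the prior count and are no bound. Leaving out another AT2 library lowered the log2 fold change to 4.24 in footprints and 6.15 in RNA.

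The paired Hnf4a transcripts, 4356 and 4362 nucleotides long, are listed with the same ORF of 474 codons and were split unevenly between libraries. Their annotated coding sequences differ in length, at 1425 nucleotides in ENSMUST00000018094.12 and 1398 in ENSMUST00000109411.7. In LUAD footprints ENSMUST00000018094.12 took 81.5% to 84.7% of the counts. In LUAD RNA its estimated counts were 924, 0, 600 and 283 in libraries 1 to 4, against 186, 990, 127 and 548 for ENSMUST00000109411.7. The larger share therefore changed hands between RNA libraries whose gene totals differed far less. By transcript, ENSMUST00000109411.7 passed the test in RNA with a log2 fold change of 8.46 (edgeR adjusted p = 0.01307). ENSMUST00000018094.12 did not, at 6.36 (edgeR adjusted p = 0.1461). Neither passed in footprints, where ENSMUST00000018094.12 had 4.84 (edgeR adjusted p = 0.09583) and ENSMUST00000109411.7 had 5.22 (edgeR adjusted p = 0.06846). The gene total carries the Hnf4a result, and transcripts that start at the distal site are not analysed here.

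Foxa2 (ENSMUSG00000037025.11; chromosome 2, minus strand, 148042877 to 148046969) fell in RNA, while its sparse footprints did not pass the test. Foxa2 RNA stood at 175, 173 and 140 CPM in AT2 and at 12.1, 15.8, 11.7 and 15.5 CPM in LUAD. Both groups were tight and far apart, with a log2 fold change of -3.56 ± 0.19 (SE; edgeR adjusted p = 2.553e-05), which is 11.8-fold lower in LUAD. Its footprints stood at 35.6, 6.61 and 1.51 CPM in AT2 and at 3.30, 3.93, 1.78 and 1.78 CPM in LUAD. The groups overlapped, since AT2 library 3 lay below every LUAD library, and the AT2 value rested on library 1. The log2 fold change was -2.38 ± 0.98 (SE; edgeR adjusted p = 0.1252), on 60 AT2 and 96 LUAD counts. It was -0.60 without AT2 footprint library 1 (edgeR adjusted p = 0.6532), and it passed without AT2 footprint library 3, at -2.92 (edgeR adjusted p = 0.0455), and with DESeq2, at -2.39 (DESeq2 adjusted p = 0.04568).

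ENSMUST00000109964.7 took all Foxa2 footprints and all AT2 RNA counts. Its listed ORF of 465 codons opens 35 bases downstream of the second of 3 RefSeq starts of the gene. In RNA it fell by 3.58 on the log2 scale (edgeR adjusted p = 0.001748), and in footprints its log2 fold change was -2.25 (edgeR adjusted p = 0.274). ENSMUST00000047315.9, with an ORF of 459 codons, received RNA counts in LUAD libraries 1 and 3 only, 63.9 and 71.6, where it reached up to 32.8% of the gene. It was not tested, because it did not pass the filter on low counts.

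Sox9 (ENSMUSG00000000567.5; chromosome 11, plus strand, 112782210 to 112787757) was lower in LUAD in both assays. Its footprints stood at 60.5, 97.6 and 78.7 CPM in AT2 and at 28.2, 22.3, 10.9 and 11.9 CPM in LUAD. No AT2 library reached down to the LUAD libraries on this scale, and LUAD libraries 1 and 2 lay above libraries 3 and 4. The log2 fold change was -2.12 ± 0.38 (SE; edgeR adjusted p = 0.007309). The separation leaned on the scaling of AT2 library 1, because without TMM scaling that library stood at 32.5 CPM, below the 33.8 of LUAD library 1. With no scaling the log2 fold change was -1.70 (edgeR adjusted p = 0.03776), on the log2 scale of TPM + 0.1 it was -1.51 (limma adjusted p = 0.1217), and without AT2 library 1 it was -2.30 (edgeR adjusted p = 0.005379).

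Sox9 RNA showed a smaller difference that sat at the edge of the test. It stood at 20.9, 29.6 and 19.4 CPM in AT2 and at 12.9, 13.1, 4.84 and 5.70 CPM in LUAD. The groups did not overlap, and LUAD libraries 1 and 2 were again above libraries 3 and 4. The log2 fold change was -1.35 ± 0.43 (SE; edgeR adjusted p = 0.0400), 2.56-fold lower in LUAD. It no longer passed with the replicate number as a block, at -1.28 (edgeR adjusted p = 0.0546), without AT2 RNA library 1 (edgeR adjusted p = 0.08056) or without AT2 RNA library 2, LUAD RNA library 3 or LUAD RNA library 4. The single paired Sox9 transcript, ENSMUST00000000579.2, passed among transcripts in footprints, at -1.95 (edgeR adjusted p = 0.03847), and not in RNA, at -1.18 (edgeR adjusted p = 0.2257).

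**Figure D3:**
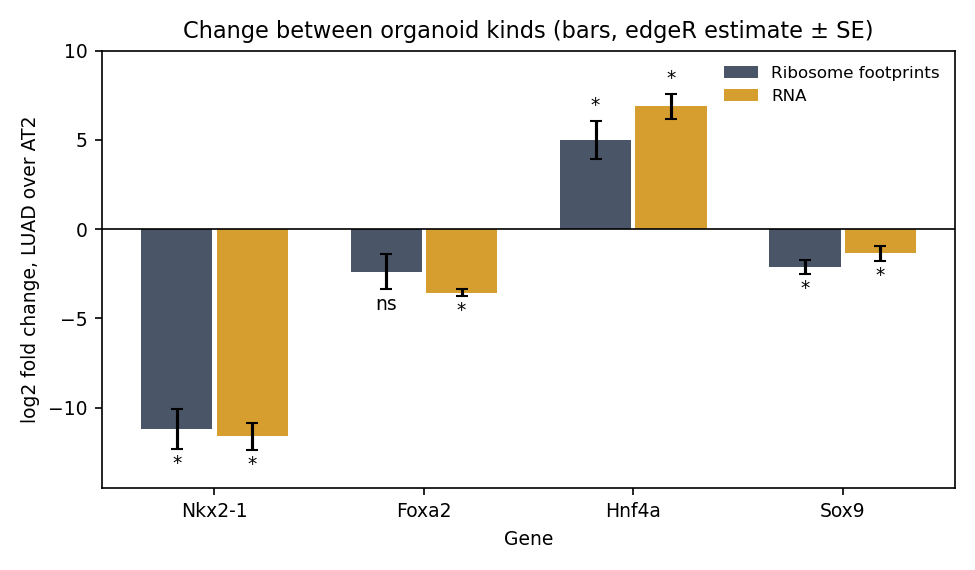
Log2 fold change of LUAD over AT2 (y axis, edgeR estimate, error bars are SE) in ribosome footprints and RNA for each gene (x axis). Asterisks mark an adjusted p under 0.05 and ns marks values that did not pass; Foxa2 footprints are the value that did not pass, at -2.38.

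Compared per transcript length, in the deposited TPM values, the order of the 4 genes turned over between the organoids. In AT2 RNA Nkx2-1 led with 127 ± 65 TPM (SD, n = 3), followed by Foxa2 with 60.9 ± 15.8 TPM, and their ranges overlapped. Sox9 was lower at 4.21 ± 1.43 TPM, and Hnf4a averaged 0.0543 TPM. In LUAD RNA Hnf4a led with 6.78 ± 1.04 TPM (SD, n = 4), overlapping Foxa2 at 4.74 ± 1.01 TPM, above Sox9 at 1.57 ± 0.91 TPM and Nkx2-1 at 0.0338 TPM. The leading factor of one organoid kind was thus the last in the other. Footprints placed Sox9 above Foxa2 in both kinds. In AT2 footprints the order was Nkx2-1 at 31.2 ± 11.5 TPM, Sox9 at 11.2 ± 6.8 TPM, Foxa2 at 2.41 ± 1.93 TPM and Hnf4a at 0.121 TPM, and only the ranges of Sox9 and Foxa2 overlapped. In LUAD footprints the order was Hnf4a at 8.15 ± 2.69 TPM, Sox9 at 3.61 ± 1.92 TPM, Foxa2 at 1.08 ± 0.53 TPM and Nkx2-1 at 0.0504 TPM, with no overlap between neighbours.

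Footprints relative to RNA separate changes in ribosome occupancy from changes in RNA. Foxa2 had few footprints for its RNA in both organoids. The ratio of mean footprint CPM to mean RNA CPM was 0.0895 in AT2, where 0.594% of 6395 genes with enough counts had a lower ratio, and 0.196 in LUAD, where 5.19% of 6688 genes did. Each footprint library set against the mean RNA level of its own group gave the following for Foxa2: the AT2 libraries had 0.219, 0.0407 and 0.00930, and the LUAD libraries 0.239, 0.285, 0.129 and 0.129. AT2 library 1 thus lay within the LUAD range and AT2 libraries 2 and 3 below it. Sox9 lay above the median over genes, with a ratio of 3.39 in AT2 and 2.01 in LUAD. By footprint library it had 2.60, 4.19 and 3.38 in AT2 and 3.09, 2.45, 1.19 and 1.31 in LUAD. In AT2, 89.6% of genes had a lower ratio than Sox9, and in LUAD 75.5% did. Nkx2-1 in AT2 had a ratio of 0.510 and Hnf4a in LUAD one of 1.03, against medians over genes of 1.05 in AT2 and 0.957 in LUAD. The Nkx2-1 value leaned on AT2 footprint library 1, with 1.095, 0.242 and 0.194 in AT2 libraries 1, 2 and 3. Hnf4a ranged from 0.808 to 1.345 over the LUAD footprint libraries.

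The test of a difference in footprints per RNA between LUAD and AT2, an interaction term over 14 libraries, called 50 of 7078 genes (0.706%). Only Foxa2 and Sox9 had at least 20 counts in each of the 4 groups, and neither was called. Foxa2 had a log2 interaction of 1.36 ± 0.89 (SE; edgeR adjusted p = 0.540), and it was called without AT2 footprint library 1, at 3.01 (edgeR adjusted p = 0.01698). Sox9 had -0.69 ± 0.60 (SE; edgeR adjusted p = 0.662).

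The ORF lists, which hold ORFs with an excess of in-frame ribosome positions at the authors' p-value of at most 0.05, named each factor in at least 1 library. All entries were annotated coding ORFs. The lists are samples of their own, and their library numbers are not matched here to the footprint libraries of the same number. Nkx2-1's ORF of 372 codons was listed in AT2 library 2 alone, with 25 P-sites (positions of the ribosome's peptidyl site), of which 13, or 52.0% (95% exact interval 31.3% to 72.2%), were in frame (authors' deposited p = 0.0371). Hnf4a's ORF was listed in LUAD library 1, with 55.3% of 152 P-sites in frame (95% exact interval 47.0% to 63.3%). It was also listed in LUAD library 3, with 45.3% of 53 P-sites in frame (95% exact interval 31.56% to 59.55%), and in no AT2 library. Foxa2 was listed in AT2 library 1, with 47.5% of 40 P-sites in frame (95% exact interval 31.5% to 63.9%). Its entry in LUAD library 1 had 61.8% of 68 P-sites in frame (95% exact interval 49.2% to 73.3%). Sox9's ORF of 507 codons was listed in LUAD library 3 alone, with 47.4% of 19 P-sites in frame (95% exact interval 24.4% to 71.1%). Sox9 footprints were higher in AT2, and the AT2 lists named 1558 and 2165 genes, against 2613 to 5212 in the LUAD lists. Over all annotated ORFs of a library, the median in-frame share was highest in AT2 library 2, at 53.2%. LUAD library 2 listed none of the 4, and an ORF missing from a list is not shown to be untranslated. In the deposited RPKM values, Nkx2-1 had 8.21 in AT2 library 2, Hnf4a 5.00 and 5.49 in LUAD libraries 1 and 3, Foxa2 5.05 in AT2 library 1 and 2.55 in LUAD library 1 for its ORF of 465 codons, and Sox9 1.92 in LUAD library 3.

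Other lung transcription factors moved in both directions. A gene enters these lists of related genes only with a listed ORF, and more ORFs were listed in LUAD, which favours genes translated there. Of 30 lung epithelial transcription factors 20 were paired and tested, Nkx2-1 and Foxa2 among them. In footprints 3 of the 20 rose and 4 fell, not far from the 9.46% higher and 11.8% lower over all genes tested, with a median log2 fold change of 0.22 against -0.02. Elf3, an epithelial ETS factor, rose from 51.0 ± 7.4 CPM in AT2 (SD, n = 3) to 218 ± 19 CPM in LUAD (SD, n = 4), a log2 fold change of 2.09 (edgeR adjusted p = 0.0004692). Foxp1 rose by 0.91 (edgeR adjusted p = 0.01648) and Grhl2 by 0.60 (edgeR adjusted p = 0.04281). Irx1, a homeobox factor of the distal lung, fell by 3.64 (edgeR adjusted p = 0.008136), from 25.2 ± 15.2 to 2.08 ± 1.51 CPM. Gata6, a zinc-finger factor that acts with Nkx2-1 on surfactant genes, fell by 1.52 (edgeR adjusted p = 0.03383; -0.87 without AT2 footprint library 1), and Hes1 fell by 0.75 (edgeR adjusted p = 0.04018). With total paired counts and no scaling 5 rose and 2 fell in footprints, and the Gata6 and Hes1 calls were lost. Without AT2 footprint library 1, 7 rose, without LUAD footprint library 2 or 4 only 1 did, and without any 1 of the LUAD footprint libraries 2 fell.

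In RNA 4 of the 20 lung factors rose and 5 fell, close to the 19.1% higher and 18.1% lower over all genes tested, with a median of -0.26 against 0.04. Irx1 fell by 2.68 (edgeR adjusted p = 0.002557), Gata6 by 0.96 (edgeR adjusted p = 0.009993) and Foxp4 by 0.86 (edgeR adjusted p = 0.02091). Id2, an inhibitor of basic helix-loop-helix factors, rose by 2.98 (edgeR adjusted p = 0.0003924). Elf3 rose by 2.51 (edgeR adjusted p = 3.276e-05), Cebpd by 2.40 (edgeR adjusted p = 0.001051) and Klf5 by 0.61 (edgeR adjusted p = 0.02179). Foxa1, the close relative of Foxa2, did not pass the test: its RNA stood at 79.8 ± 8.3 CPM in AT2 (SD, n = 3) and 94.6 ± 36.5 CPM in LUAD (SD, n = 4), with a log2 fold change of 0.25 ± 0.30 (SE; edgeR adjusted p = 0.548). In footprints Foxa1 had 0.22 ± 0.23 (SE; edgeR adjusted p = 0.547). Etv5, an ETS factor of AT2 cells, had 0.47 in footprints (edgeR adjusted p = 0.389) and -0.55 in RNA (edgeR adjusted p = 0.183).

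Hnf4a is the only gut and liver transcription factor described here, so the LUAD libraries are not described by a wider set of such factors. Genes known as targets of Hnf4a in gut and stomach could be followed for 6 of 34. In both assays 5 of the 6 rose and 0 fell, beside 9.46% of all genes tested that rose in footprints and 19.1% in RNA. Apob and Lgals4 had 0 counts in AT2 and passed the low-count filter through LUAD alone, so they could only be seen to rise. The median log2 fold changes were 4.55 in footprints and 6.95 in RNA, or 4.90 in RNA with the genes absent from AT2 set to their bound. In footprints 3 rose without LUAD footprint library 2. Apob, the structural protein of lipoproteins, was at 0 in AT2 and rose at least 87.2-fold in footprints and at least 58.8-fold in RNA, with 3 counts over the AT2 libraries as the floor. It stood at 108, 77.8, 12.8 and 7.13 CPM in LUAD footprints, so libraries 1 and 2 carried most of it. Lgals4, a gut galectin, was also at 0 in AT2 and rose at least 51.6-fold in footprints and at least 259-fold in RNA. Anxa10, an annexin of the stomach, rose by 3.71 in footprints (edgeR adjusted p = 0.03321) and, in RNA, from 1 count to 5965. Its 13 AT2 footprint counts all came from AT2 library 2, at 5.37 CPM. Gpa33, an intestinal surface antigen, rose from 2 counts to 587 in footprints, a ratio of 49.8 (95% exact interval 13.7 to 412), and both AT2 counts came from AT2 library 1. Ctse was the other gene that rose, and Tff1, a gastric peptide, did not pass, with 1.33 in footprints (edgeR adjusted p = 0.338) and 2.31 in RNA (edgeR adjusted p = 0.206).

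Genes known as Nkx2-1 targets were mostly lower in LUAD. Of 25 such genes 11 were paired and 9 tested, of which 0 rose and 7 fell in footprints (median -3.10) and 1 rose and 7 fell in RNA (median -3.32). Among all genes tested, 9.46% were higher and 11.8% lower in footprints, and 19.1% were higher and 18.1% lower in RNA. On the log2(TPM + 0.1) scale 1 rose and 4 fell in footprints (limma). Sftpb, a surfactant protein, went from 37.8 ± 10.3 CPM in AT2 footprints (SD, n = 3) to 0 in LUAD, at least 477-fold lower. Its footprints passed the low-count filter through AT2 alone. Cldn18, a lung tight-junction protein, fell, with a log2 fold change of -8.91 in footprints (edgeR adjusted p = 0.00834) and -8.45 in RNA (edgeR adjusted p = 6.796e-05). AT2 footprint library 1 carried the Cldn18 footprints, at 216 CPM against 14.1 and 3.78 CPM in the others, and without it the log2 fold change was -5.84 (edgeR adjusted p = 0.02042). Aqp5, a water channel of alveolar cells, fell by 8.27 in footprints (edgeR adjusted p = 0.0004751), and Ctsh, a protease that processes surfactant proteins, by 3.97 (edgeR adjusted p = 0.0005869). Without AT2 footprint library 1 the Ctsh log2 fold change was -3.36. Muc1, an epithelial mucin, rose by 0.87 in RNA (edgeR adjusted p = 0.007713), and its footprints had 1.23 (edgeR adjusted p = 0.0921), or 1.83 without AT2 footprint library 1, which passed (edgeR adjusted p = 0.01231).

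**Figure D4:**
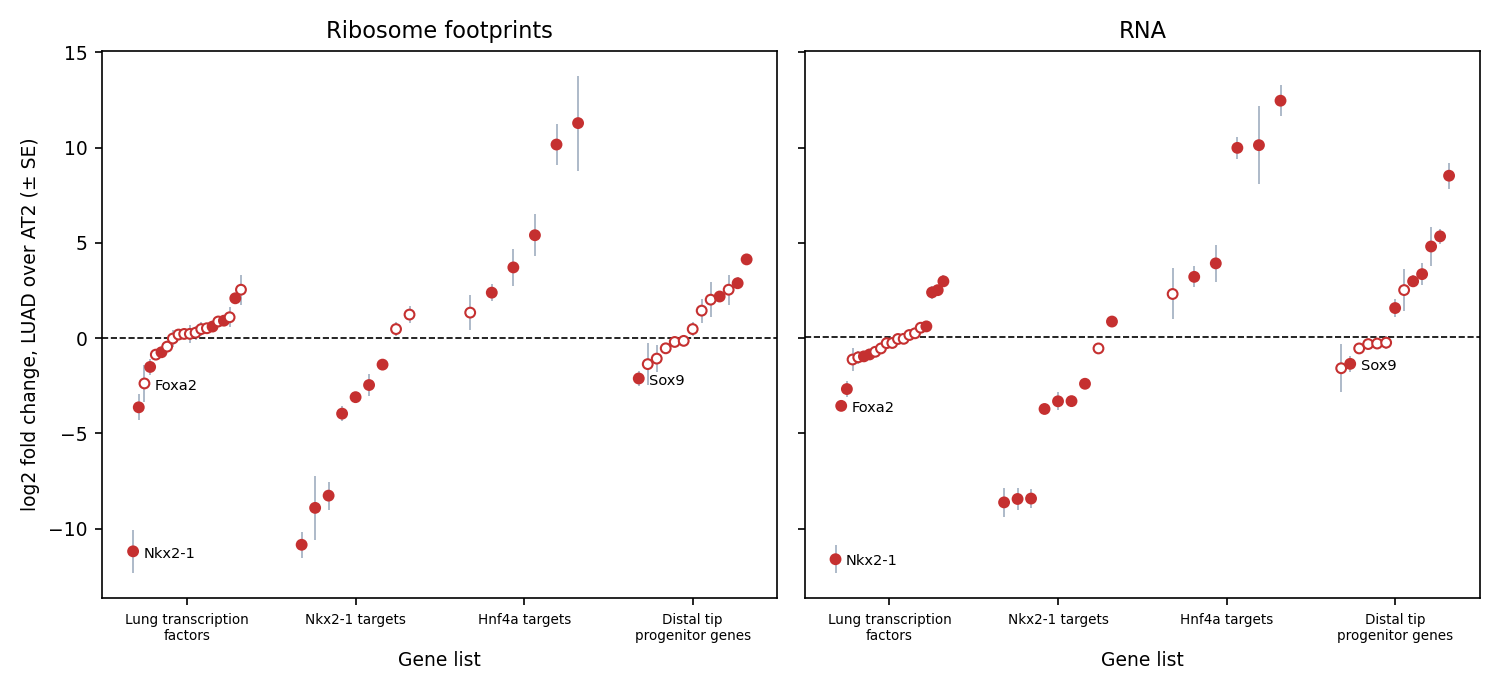
Log2 fold change of LUAD over AT2 (y axis, ± SE) for the tested members of 4 gene lists (x axis) in footprints (left) and RNA (right). Filled points passed an adjusted p of 0.05, open points did not, and the dashed line is the median over all genes tested. In both panels all 6 Hnf4a targets lie above it, 5 of them filled, and 7 of 9 Nkx2-1 targets are filled below it.

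Sox9 was lower in LUAD while some genes of a list for the same distal tip state were higher. Of 21 such genes 13 were tested. In footprints 3 rose, Sox9 alone fell and 9 did not pass (median 0.47), beside 9.46% higher and 11.8% lower over all genes tested. In RNA 6 rose, Sox9 alone fell and 6 did not pass (median 1.57), beside 19.1% higher and 18.1% lower. Other scalings and 4 of the left-out libraries lost the Sox9 RNA call. Fgfr2, Wnt7b, Spry2 and Etv5 passed in neither assay, with -1.37, -0.21, -0.15 and 0.47 in footprints. Etv4 had -1.08 in footprints (edgeR adjusted p = 0.3336) and rose by 1.57 in RNA (edgeR adjusted p = 0.02933). Hmga2, an embryonic chromatin-binding protein, went from 17.6 ± 8.7 to 132 ± 11 CPM in footprints (SD, n = 3 and n = 4; log2 fold change 2.88, edgeR adjusted p = 0.0009837). In RNA it rose by 8.52 (edgeR adjusted p = 0.0001267), from 11 counts in AT2 to 20457 in LUAD. Igf2bp2, an oncofetal RNA-binding protein, rose by 4.13 in footprints and 5.34 in RNA, and Hmga1 by 2.18 and 3.35, or 4.39 in RNA without AT2 RNA library 3. Without AT2 footprint library 3, 5 of these genes rose in footprints. Igf2bp1 rose by 4.81 in RNA (edgeR adjusted p = 0.007757), with 1.44 in footprints (edgeR adjusted p = 0.149). Sox4, another SOX factor of the epithelium, had -0.54 in footprints (edgeR adjusted p = 0.168) and -0.24 in RNA (edgeR adjusted p = 0.596).

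Markers of other cells could be followed only in part. Of 12 fibroblast markers only Bgn was paired, and it rose in LUAD by 4.59 in footprints and 8.88 in RNA. Of 12 leukocyte markers Cd14 and Mrc1 were paired, and both rose, with summed levels of 6.78 to 19.4 CPM in AT2 RNA and 150 to 200 CPM in LUAD RNA. No endothelial marker and no marker of club, ciliated or basal cells was paired. The part of these cells in the changes of the 4 factors was not tested. AT1 markers had 4 of 10 tested, of which 1 fell and 0 rose in footprints, and 2 fell and 1 rose in RNA. AT2 markers had 6 tested, of which 4 fell and 0 rose in footprints, and 4 fell and 1, Il33, rose in RNA. The AT2 markers that fell, Sftpb, Sftpd, Abca3 and Lpcat1, and the AT1 marker Aqp5 are also among the Nkx2-1 targets that fell. The lists therefore do not count separate genes. Beside these counts, 9.46% of all genes tested were higher and 11.8% lower in footprints. In RNA 19.1% were higher and 18.1% lower.

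Over the 14 libraries, the profile of log2(CPM + 1) of each factor was compared with 6526 genes, leaving out predicted genes and genes under 10 CPM. These correlations describe libraries that share 2 tissues and 2 assays and carry no test. The genes most like Nkx2-1 were Lgi3 (Pearson r = 0.994), Scnn1g (r = 0.993), a subunit of the epithelial sodium channel, and Timp3 (r = 0.993), an inhibitor of matrix metalloproteinases. Hnf4a was most like Pear1 (r = 0.979), Fmnl1 (r = 0.978) and Cfb (r = 0.967), complement factor B. Among the genes most like Foxa2 were Mboat7 (r = 0.960) and Atmin (r = 0.957), and Sox9 was most like St5 (r = 0.978), Tcaf1 (r = 0.970) and Mllt1 (r = 0.966). Among the 4, Nkx2-1 and Hnf4a ran opposite (r = -0.91), and Nkx2-1 ran with both Foxa2 (r = 0.67) and Sox9 (r = 0.66). Hnf4a had r = -0.67 with Sox9 and r = -0.51 with Foxa2, and the value for Foxa2 and Sox9 was near 0 (r = -0.01).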

How the data were processed

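Both count tables are the authors' estimated counts per transcript. The submitters' processing notes name kallisto, and its version and transcript release were not given in the sources used here. For RNA libraries the labels repeat the footprint protocol, so their preparation is unknown here. The deposited TPM values were used for levels between genes and in an alternative. The ORF lists, on mm10 per the submitters' processing notes, hold counts of P-sites by frame, a deposited RPKM value and the authors' p-value, per the file headers. No source used here names the ORF caller.

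The ORF lists served to pair transcripts with genes (22509 of them in the count tables, 7261 genes), and counts were summed to genes and rounded. Transcripts without a listed ORF are not analysed here, and counts of near-identical gene copies are uncertain. Each assay was fitted over its 7 libraries with R 4.3.3 and the robust quasi-likelihood test of edgeR 4.0.16, after filterByExpr and TMM scaling. Footprints per RNA were tested as the tissue by assay interaction. The SE is the log2 fold change divided by the square root of the test's F. Scripts were tested on simulated data. DESeq2 1.42.0 and limma 3.58.1 on log2(TPM + 0.1) were alternatives. Intervals are exact Clopper-Pearson at 95% and cover counting error only.

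The members and gene lists were chosen with earlier results of these data known. The rule for named genes takes the 4 members, up to 4 genes per list and direction past the test, a fixed set of lineage genes, and the 3 genes most like each member. Some genes named by this rule are not reported here. Of that set Cebpa and Lamp3 were not paired. Same-numbered RNA libraries deviated together (correlations of 0.24 to 0.34 in 3 pairs), which counts as pairing by the rule used here, although libraries of other numbers did so too (up to 0.34). Same-numbered footprint libraries did not (0.43, -0.36 and 0.34).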

Additional observations from a re-analysis of the deposited data

Results flagged for a closer look

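Of 81 groups of 4 LUAD libraries looked at (the 4 factors, their transcripts and the named genes in each assay), 3 had a library far from the others relative to the group's range, and chance alone marks about 1 in 20. Nkx2-1 footprints were at 0.508 CPM in LUAD library 1 and at 0 in the others, and its transcript ENSMUST00000178477.8 was at 0.363 CPM in the same library. These are the same 2 counts. With the other libraries at 0 any count would be marked, so the rate of 1 in 20 does not apply to them. Igf2bp2 RNA was at 72.0 CPM in LUAD library 3, against 61.6 to 62.8 CPM in the other LUAD libraries.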

How the results depend on the processing

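In every fit run, Nkx2-1 and Hnf4a kept their direction and their call in both assays, and Foxa2 did so in RNA, although the sizes moved when a library was left out: from -13.19 to -10.04 in footprints and -13.18 to -11.15 in RNA for Nkx2-1, and from 4.24 to 11.25 and 6.15 to 12.41 for Hnf4a. Foxa2 footprints passed with DESeq2 (-2.39), and leaving out a library moved them from -2.92 to -0.60. Sox9 kept its direction in both assays. Its footprints missed the threshold on the TPM scale (-1.51). Its RNA missed it with scaling on all transcripts (-1.15), upper-quartile scaling (-1.36), the replicate block (-1.28), TPM (-1.50), and total paired counts without scaling (-1.31, added after seeing the data), and ranged from -1.58 to -1.14 with a library left out. Footprints per RNA changed sign for Nkx2-1 (-2.33 to 1.77) and Hnf4a (-6.73 to 5.05) when a library was left out, on too few counts to read. The replicate block changed no other call of the 4 genes.

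Genes called in footprints numbered 1447, and 931 with the replicate block, 609 on the TPM scale, 2853 with AT2 libraries 2 and 3 against LUAD libraries 3 and 4 only (added after seeing the data), and 838 to 1894 with a library left out. In RNA they numbered 2575, and 4052 with AT2 and LUAD libraries 1 and 2 only (also added), and 1632 to 3357 with a library left out. Footprints per RNA gave 50, 374 with DESeq2, 107 with the replicate block, and 11 to 418 with a library left out. Transcripts called numbered 1894 in footprints (5044 with DESeq2, 0 with the replicate block in edgeR, where 3261 had an unadjusted p under 0.05, and 439 to 2482 with a library left out). In RNA they numbered 2964 (5979 with DESeq2, 923 with the replicate block, 1262 to 3951 with a library left out). The causes were not tested.

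The share of calls higher in LUAD was 44.5% in footprints and 51.3% in RNA. It was 69.5% and 69.0% with scaling on all transcripts, where the median of all genes moved to 0.31 and 0.24, and 77.6% and 55.0% without scaling, with medians of 0.47 and 0.05.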
